A study of Mus musculus with 6 samples.

Results

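A set of 10 genes of the ADP-ribosylation system was followed by bulk RNA-seq in alveolar macrophages, which patrol the air spaces of the lung. They were chosen by symbol from the authors' expression table of 17142 genes, and all 10 were found and passed the filter on low values, so that all 10 were among the 11111 genes tested. Of these, 7 were grouped as interferon-linked (Parp9, Parp10, Parp11, Parp12, Parp14, Dtx3l and Zc3hav1) and 3 as other members (Parp1, Parp2 and Parp8). The samples were 3 libraries labelled Trim33 knockout and 3 labelled WT, all from cells described as allergen exposed, and the series title speaks of a single challenge. Trim33 encodes TIF1γ, a chromatin-binding tripartite-motif protein. The labels do not give the allergen, the knockout allele, any Cre driver, the age or strain of the mice, or whether each library came from its own animal, and p-values therefore reflect the variation among libraries, part of which may be technical. Levels are given in TPM, a share of each library corrected for gene length, which lets levels of different genes be compared. The sequencing depth is unknown. Trim33 itself had 2.63, 3.34 and 3.98 TPM in knockout replicates 1, 2 and 3, against 6.83, 10.97 and 6.86 TPM in wild-type replicates 1, 2 and 3, and so stood in the direction of its label in every library.

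ADP-ribosyltransferases move the ADP-ribose unit of NAD onto proteins or nucleic acids, as single units or as poly(ADP-ribose) chains. PARP1 and PARP2 make chains at DNA breaks and recruit repair factors there. PARP10, PARP11, PARP12 and PARP14 attach single units, and many genes of this branch are induced by interferon in macrophages. PARP9 works as a partner of the ubiquitin ligase DTX3L, which belongs to the Deltex family and not to the PARP family. ZAP, the product of Zc3hav1, keeps the PARP fold without catalytic activity and binds viral RNA rich in CG dinucleotides. PARP14 is also known as a coactivator of STAT6, the transcription factor of interleukin-4 signalling.

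Positions are from the RefSeq annotation of GRCm38.p6, and the strands from GENCODE release M21. On chromosome 16, Parp14 (Entrez gene 547253) ran from 35831892 to 35871518 and Dtx3l (209200) from 35926515 to 35939027, both on the minus strand, and Parp9 (80285) ran from 35938470 to 35972621 on the plus strand. Parp9 and Dtx3l thus overlapped head to head by 558 bases, of which 458 were exonic in both genes in GENCODE release M21. That is 9.40% of the exonic bases of Parp9 and 8% of those of Dtx3l, and whether the authors' counting used strand is not given in the sources used here, so reads from the shared bases cannot be told apart. On chromosome 6, Zc3hav1 (78781, 38305286 to 38355352) and Parp12 (243771, 39086412 to 39118349) lay 731059 bases apart on the minus strand, and Parp11 (101187, 127446830 to 127514233) lay on the plus strand. Parp10 (671535) occupied 76232995 to 76243440 on chromosome 15, where 4.795% of its exonic bases were shared with Plec. Parp1 (11545) lay on chromosome 1 from 180568891 to 180600999, Parp2 (11546) on chromosome 14 from 50807897 to 50821301 and Parp8 (52552) on chromosome 13 from 116850842 to 117026019. Each value is a total per gene, with no resolution of exons, introns or UTRs.

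Promoter sequences from RefSeq (GRCm38.p6), each 250 bases before to 50 after an annotated start, were matched for 7 of the 10 genes. None was matched for Parp9, Parp10 and Parp14, whose levels rose in the knockout. Sequences are shown for the other genes whose levels rose (Parp11, Parp12), for interferon-linked genes that did not pass (Dtx3l, Zc3hav1) and for Parp1. Each is given 5′ to 3′ on the gene's own strand. They were searched on both strands for the core of the interferon-stimulated response element (GAAA, any 2 bases, GAAA) and for the gamma-activated sequence (GAS, TTCNNNGAA), and capitals mark matches.
Parp11, chr6:127446590-127446889, plus strand: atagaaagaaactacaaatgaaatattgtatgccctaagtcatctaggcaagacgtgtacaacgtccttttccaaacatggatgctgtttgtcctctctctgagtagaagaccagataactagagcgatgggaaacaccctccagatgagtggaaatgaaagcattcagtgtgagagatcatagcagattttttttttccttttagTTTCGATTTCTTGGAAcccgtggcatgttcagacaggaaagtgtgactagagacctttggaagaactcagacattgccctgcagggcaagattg
Parp12, chr6:39118300-39118599, minus strand: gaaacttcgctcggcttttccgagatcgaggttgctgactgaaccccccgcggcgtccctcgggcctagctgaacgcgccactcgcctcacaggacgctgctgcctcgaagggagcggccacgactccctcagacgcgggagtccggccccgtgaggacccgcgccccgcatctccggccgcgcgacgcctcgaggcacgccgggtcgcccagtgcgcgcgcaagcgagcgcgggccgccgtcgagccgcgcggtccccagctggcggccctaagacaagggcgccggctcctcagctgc
Dtx3l, chr16:35938978-35939277, minus strand: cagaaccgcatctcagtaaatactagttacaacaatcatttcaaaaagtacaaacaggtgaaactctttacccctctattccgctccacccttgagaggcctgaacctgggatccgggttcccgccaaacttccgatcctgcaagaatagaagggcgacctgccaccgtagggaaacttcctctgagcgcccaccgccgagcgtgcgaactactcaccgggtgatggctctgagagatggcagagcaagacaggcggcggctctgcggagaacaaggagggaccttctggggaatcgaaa
Zc3hav1, chr6:38354554-38354853, minus strand: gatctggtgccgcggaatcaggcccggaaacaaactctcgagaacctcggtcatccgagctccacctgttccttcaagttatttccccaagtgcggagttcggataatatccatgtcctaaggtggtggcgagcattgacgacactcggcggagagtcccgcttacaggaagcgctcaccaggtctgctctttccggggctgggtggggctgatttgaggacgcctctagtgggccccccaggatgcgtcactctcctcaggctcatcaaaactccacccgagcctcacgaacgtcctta
Parp1, chr1:180568641-180568940, plus strand: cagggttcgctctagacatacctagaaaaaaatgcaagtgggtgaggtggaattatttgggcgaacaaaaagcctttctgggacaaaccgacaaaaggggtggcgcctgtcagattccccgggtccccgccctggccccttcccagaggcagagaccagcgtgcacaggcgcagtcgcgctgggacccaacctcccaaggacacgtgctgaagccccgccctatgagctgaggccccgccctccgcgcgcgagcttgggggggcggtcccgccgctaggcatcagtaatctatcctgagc
Parp11 held the response element core on its minus strand, starting 44 bases before the annotated start, and a GAS starting 37 bases before it, so that the matches share bases. No match was found in the windows of Parp12, Dtx3l, Zc3hav1, Parp1, Parp2 and Parp8, nor at a second annotated start of Parp11. Of all 32851 promoters of this length, 3.44% held the core and 8.30% the GAS. Among 22 promoters of 19 genes on a list of interferon-stimulated antiviral genes, 11 held the core (50%). The Zc3hav1 and Parp8 windows were placed at internal starts, downstream of the outermost annotated start. The windows also differed in CG dinucleotides, with 5 in the Parp11 window shown and 46 in that of Parp12.

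In the knockout, 5 of the 7 interferon-linked genes rose, by 1.63-fold to 1.75-fold, and none of the 3 other members passed the test. The genes that rose were Parp9, Parp10, Parp11, Parp12 and Parp14. Of all genes tested, 4.47% were called higher and 10.2% lower (limma on log2(TPM + 1), Benjamini-Hochberg adjusted p under 0.05, n = 3 per group). The median log2 difference was 0.69 over the 7 interferon-linked genes and -0.07 over the 3 others, beside -0.15 over all tested genes. In the same order, these medians were 0.85, 0.08 and -0.0057 after median-ratio scaling. After quantile normalization they were 0.82, 0.05 and -0.05. These are descriptions of the lists and were not tested as such. Knockout values lay wholly above the wild-type values in 9.84% of tested genes and wholly below them in 34.6%. In bulk samples, a change in the share of a cell type and a change in RNA per cell cannot be told apart. All differences below are on the log2(TPM + 1) scale, knockout minus wild type, and folds are ratios of mean TPM.

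**Figure D1:**
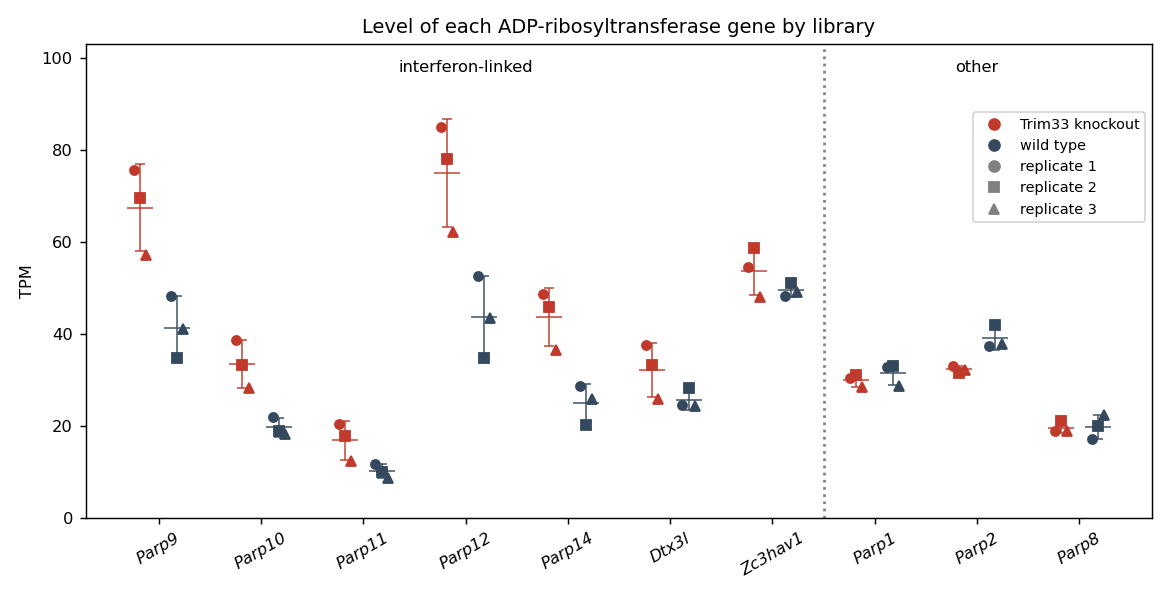
TPM (y axis, linear) of the 10 genes, with Trim33 knockout left of wild type for each gene. Symbols are single libraries by replicate number, and bars give the mean ± SD (n = 3 each). The knockout values of Parp9, Parp10, Parp11, Parp12 and Parp14 lie above all their wild-type values, while those of Parp2 lie below. Of all tested genes, 9.84% lie wholly above and 34.6% wholly below.

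Parp9, the partner of the DTX3L ubiquitin ligase, had 75.6, 69.5 and 57.1 TPM in knockout replicates 1, 2 and 3 and 48.3, 34.7 and 41.1 TPM in wild-type replicates 1, 2 and 3. All knockout libraries were above all wild-type libraries, with means of 67.4 ± 9.43 TPM in knockout and 41.4 ± 6.77 TPM in wild type (SD, n = 3 each). On the log2 scale this was 0.69 ± 0.14 (SE), and limma gave an adjusted p of 0.0162. Dtx3l had 37.5, 33.2 and 25.9 TPM in knockout and 24.4, 28.3 and 24.2 TPM in wild type. Its groups overlapped, since knockout replicate 3 lay below wild-type replicate 2, and its difference of 0.30 (95% interval 0.0049 to 0.60) did not pass, with a limma adjusted p of 0.129. The ratio of Parp9 to Dtx3l within a library does not depend on any scaling factor common to all genes of that library. It was 2.02, 2.10 and 2.21 in knockout and 1.98, 1.23 and 1.70 in wild type, so that the groups did not overlap but wild-type replicate 1 came close. A two-sided exact permutation test of the log2 ratio gave p = 0.1, the smallest that 3 libraries against 3 allow, and 0.125 after adjustment over the 5 ratios examined. Without wild-type replicate 2 the difference in log2 ratio was 0.20, against 0.39 with all libraries.

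Parp14, the macrodomain protein that coactivates STAT6, had 48.6, 45.9 and 36.6 TPM in knockout replicates 1, 2 and 3, against 28.7, 20.3 and 25.8 TPM in the wild-type replicates. Its difference of 0.79 ± 0.14 (SE) was the largest of the 10 genes, with a limma adjusted p of 0.0125. The ratio of Parp14 to its neighbour Parp9 was 0.647 ± 0.0106 in knockout and 0.602 ± 0.0236 in wild type (SD, n = 3 each). These values did not overlap, and the exact permutation p was 0.1 (0.125 adjusted over 5 ratios).

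Parp10, a transferase of single ADP-ribose units, had 38.7, 33.3 and 28.3 TPM in knockout and 21.9, 18.9 and 18.2 TPM in wild type. It showed the widest gap between groups relative to its level, since its lowest knockout library was 1.29 times its highest wild-type library. The difference was 0.73 ± 0.13 (SE, limma adjusted p 0.0103). Parp12, a zinc finger member with antiviral activity, had the highest level of the 10 in knockout, at 84.9, 78.1 and 62.1 TPM, against 52.6, 34.6 and 43.5 TPM in wild type. Its groups were apart in every library, with a difference of 0.78 ± 0.16 (SE, limma adjusted p 0.0213). The ratio of Parp10 to Parp12 was 0.446 ± 0.0172 in knockout and 0.459 ± 0.0734 in wild type, and the groups overlapped (SD, exact permutation p = 1, n = 3 each). Parp11, a nuclear envelope-associated transferase of single units, had the lowest mean, with 20.4, 17.9 and 12.3 TPM in knockout against 11.7, 10.03 and 8.74 TPM in wild type. Its knockout replicate 3 was 1.05 times its highest wild-type library, so the groups only just failed to overlap, and its difference of 0.66 ± 0.18 (SE) had a limma adjusted p of 0.0401.

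Zc3hav1, which encodes ZAP, had 54.6, 58.6 and 48.0 TPM in knockout and 48.3, 50.9 and 49.1 TPM in wild type. The groups overlapped, with the wild-type values inside the range of the knockout values and knockout replicate 3 the lowest of all 6 libraries. The difference was 0.11 (95% interval -0.10 to 0.32, limma adjusted p 0.394). Its upper end lay under the point estimates of the 5 genes that rose, but the interval overlapped that of Parp11 (0.26 to 1.06). The Parp12 to Zc3hav1 ratio was 1.56, 1.33 and 1.29 in knockout and 1.09, 0.680 and 0.887 in wild type, with no overlap and an exact permutation p of 0.1 (0.125 adjusted over 5 ratios, n = 3 each). The fifth ratio, of Parp1 to Parp2, was 0.927 ± 0.0495 in knockout and 0.807 ± 0.0626 in wild type, without overlap and with the same p. All 5 were chosen after values were seen.

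Parp1, the main sensor of DNA breaks, had 30.3, 31.0 and 28.4 TPM in knockout and 32.7, 33.04 and 28.6 TPM in wild type. Its groups overlapped, and its difference of -0.07 (95% interval -0.28 to 0.15) had a limma adjusted p of 0.615. Parp2 had 33.1, 31.6 and 32.1 TPM in knockout, all below the 37.4, 42.0 and 37.8 TPM of wild type. Such separation downward was seen in 34.6% of tested genes. The Parp2 difference was -0.27 (95% interval -0.47 to -0.07), which did not pass over all genes, with a limma adjusted p of 0.0655. Parp8, a little-studied transferase of single units with no established link to interferon, had 19.0, 21.0 and 18.9 TPM in knockout and 17.1, 20.1 and 22.3 TPM in wild type. Its wild-type spread covered all knockout values, and the difference was -0.0072 (95% interval -0.27 to 0.25, limma adjusted p 0.967). The signs of the Parp1 and Parp8 differences turned positive after median-ratio scaling (0.08 and 0.14) and after quantile normalization (0.05 and 0.15), and neither passed under these settings. Over the 16 alternatives Parp1 kept its sign in 13 and Parp8 in 9, while Parp2 was lower in all 16. The Parp2 difference shrank to -0.11 after median-ratio scaling (limma adjusted p 0.322) and -0.16 after quantile normalization (0.167).

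**Figure D2:**
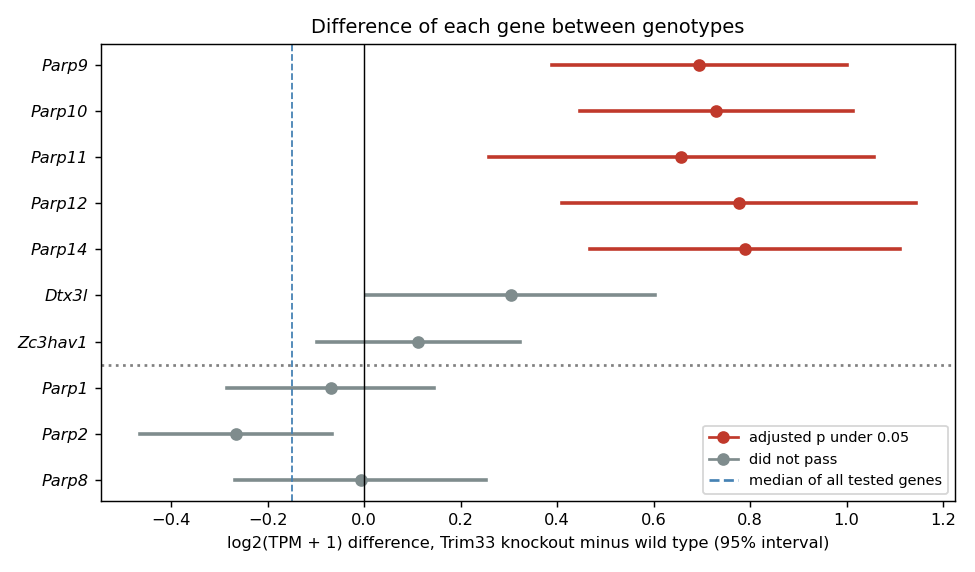
Log2(TPM + 1) difference of each gene, Trim33 knockout minus wild type (x axis), with 95% intervals from limma, n = 3 per group. Red marks the 5 genes with an adjusted p under 0.05, all between 0.66 and 0.79, grey those that did not pass, and the dashed line the median of all tested genes (-0.15).

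The changes altered the order of levels within the family. In knockout the means ran from Parp12 (75.03 TPM) and Parp9 (67.4 TPM) through Zc3hav1 (53.7 TPM) and Parp14 (43.7 TPM) to Parp10, Parp2, Dtx3l and Parp1 (29.9 to 33.4 TPM), then Parp8 (19.6 TPM) and Parp11 (16.8 TPM). Neighbours in this order overlapped between libraries except Parp1 and Parp8. In wild type Zc3hav1 came first (49.5 ± 1.35 TPM, SD, n = 3), followed by Parp12, Parp9, Parp2, Parp1, Dtx3l, Parp14, Parp8, Parp10 and Parp11. There, Parp2 and Parp1, Parp1 and Dtx3l, and Parp10 and Parp11 were the neighbours whose libraries did not overlap. The interferon-linked genes together held 81.4%, 80.1% and 77.3% of the TPM of the 10 genes in knockout replicates 1, 2 and 3, against 73.0%, 67.5% and 70.4% in wild-type replicates 1, 2 and 3. The sum of the 3 other members was 79.4 to 83.5 TPM in knockout and 87.2 to 95.1 TPM in wild type.

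Libraries of the same genotype differed in step for most of the interferon-linked genes. Knockout replicate 1 was the highest and knockout replicate 3 the lowest knockout library for 6 of the 7, Zc3hav1 being the exception. Wild-type replicate 1 was the highest wild-type library for the 5 genes that rose. The mean log2(TPM + 1) of 22 interferon-stimulated antiviral genes was 6.80, 6.62 and 5.89 in knockout replicates 1, 2 and 3 and 5.47, 4.14 and 4.72 in wild-type replicates 1, 2 and 3. Parp9, Parp12 and Parp14 followed exactly that order over all 6 libraries, whereas Parp10 and Parp11 differed from it in the order of wild-type replicates 2 and 3. Parp1, Parp2 and Parp8 did not follow it. With 6 libraries in 2 groups, the relation was not tested.

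**Figure D3:**
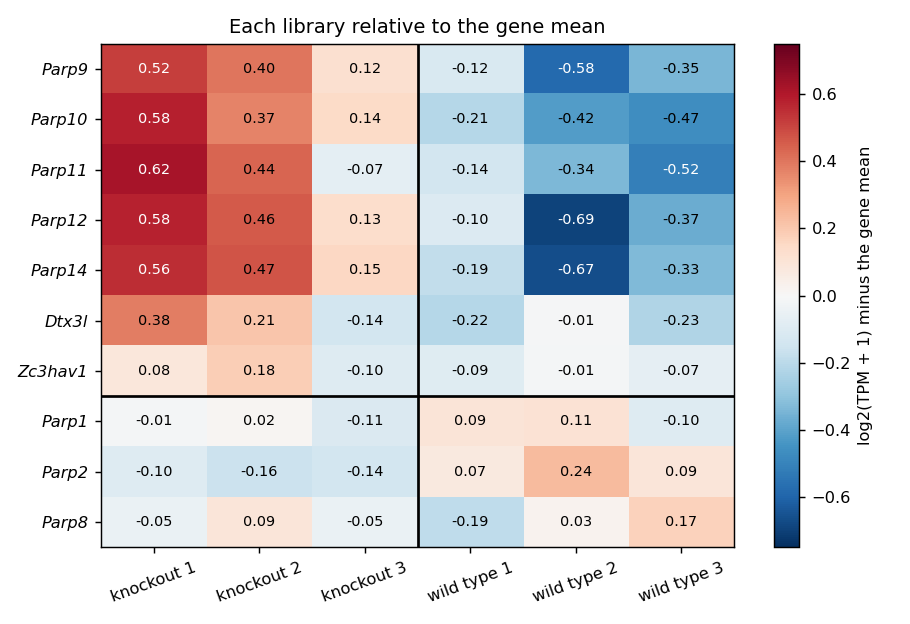
Log2(TPM + 1) of each gene (rows) in each library (columns, Trim33 knockout left of wild type) minus that gene's mean over the 6 libraries. The 5 genes that rose run from 0.62 in knockout replicate 1 (Parp11) to -0.69 in wild-type replicate 2 (Parp12), while Parp1, Parp2 and Parp8 stay between -0.19 and 0.24.

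With any 1 library left out, the differences of the 5 genes stayed between 0.51 and 0.92, but not all calls held in these smaller fits. Without knockout replicate 3 or wild-type replicate 1 all 5 still passed. Without knockout replicate 1 or wild-type replicate 2, Parp10 and Parp14 passed. Without knockout replicate 2, Parp10 passed alone, and omitting wild-type replicate 3 left none. For Parp9, Parp10, Parp12 and Parp14 the limma adjusted p reached at most 0.0776 in these fits, and for Parp11 0.142. Dtx3l and Zc3hav1 did not pass in any of them.

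**Figure D4:**
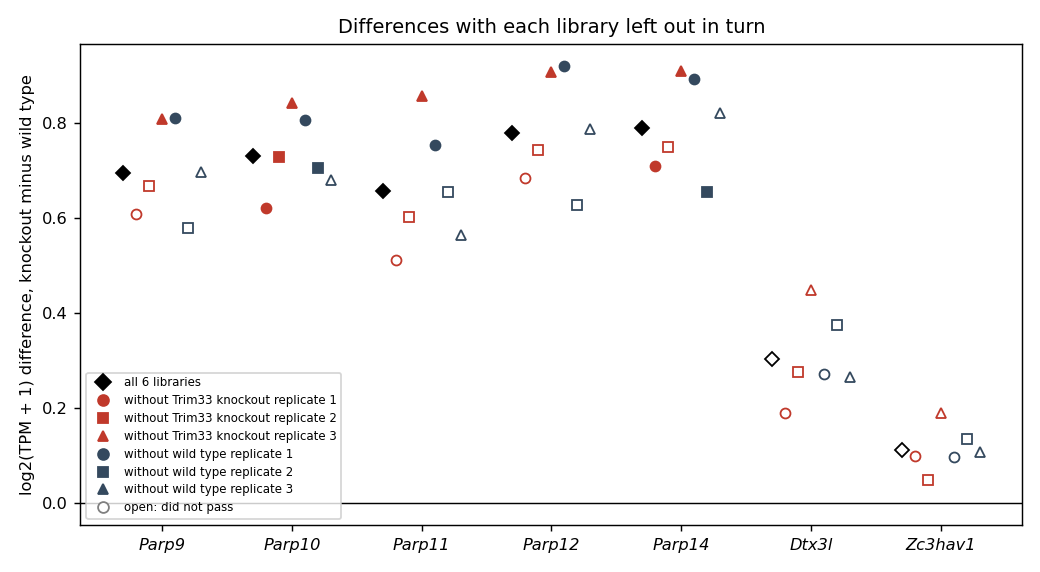
Log2(TPM + 1) difference (y axis), Trim33 knockout minus wild type, of the 7 interferon-linked genes with all 6 libraries (diamonds) and with each library left out, red for a knockout and dark blue for a wild-type library. Open symbols did not pass. Every value lies above 0, and Dtx3l and Zc3hav1 lie at or below 0.45.

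Genes that transmit and answer interferon were set beside the family, from lists chosen with earlier results of these data known. Of 14 genes of interferon signalling, 5 were called higher, none lower, and 9 did not pass, beside 4.47% higher and 10.2% lower over all tested genes. Stat2, a subunit of the ISGF3 transcription factor, had 97.6 ± 24.8 TPM in knockout and 47.4 ± 6.64 TPM in wild type (SD, n = 3 each). Irf9, another subunit of that factor, rose to 70.2 ± 9.39 TPM in knockout, against 48.2 ± 8.65 TPM in wild type. Ifnar2, a chain of the type I interferon receptor, rose to 135 ± 9.04 TPM in knockout, against 107 ± 5.01 TPM in wild type, and Socs1, a feedback inhibitor of the pathway, to 15.9 ± 5.62 TPM in knockout, against 5.06 ± 1.095 TPM in wild type. Irf9 did not pass with FPKM, median-ratio scaling, quantile normalization, plain moderation or no filter, with limma adjusted p from 0.0530 to 0.0826. Ifnar2 did not pass without the filter (0.0612) or with plain moderation (0.0621). None of the 14 passed with knockout replicate 2, wild-type replicate 2 or wild-type replicate 3 omitted. Of 22 tested antiviral genes, 6 were called higher and none lower, with a median difference of 1.82. The knockout values of all 22 lay above their wild-type values, as in 9.84% of all tested genes. The largest difference among the 10 genes (0.79) was smaller than that median. Ddx58, which encodes the RNA sensor RIG-I, had 84.4 ± 14.7 TPM in knockout and 42.96 ± 7.97 TPM in wild type, and Ifih1, which encodes the sensor MDA5, had 55.03 ± 7.36 TPM in knockout and 32.98 ± 5.86 TPM in wild type. Herc6, an ISG15 ligase in mouse, had 28.9 ± 6.26 TPM in knockout and 13.8 ± 3.48 TPM in wild type, and the RNA editing enzyme gene Adar, which did not pass without the filter, had 44.3 ± 5.82 TPM in knockout and 30.4 ± 3.28 TPM in wild type. The number of antiviral genes called was 20 with wild-type replicate 1 omitted, 20 with plain moderation of the variances and 11 without the filter, but 1 with knockout replicate 1 or 2 omitted, 2 with wild-type replicate 2 omitted and 0 with wild-type replicate 3 omitted.

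Of 7 further members of the PARP family, 1 rose, 1 fell and 5 did not pass. The shares over all tested genes were 4.47% higher and 10.2% lower. Neither this list nor those below were tested as sets against these shares. Parp3, which acts in repair of DNA breaks, rose to 73.9 ± 8.99 TPM in knockout, against 55.2 ± 0.698 TPM in wild type (SD, n = 3 each, limma adjusted p 0.0288). Tnks2, a tankyrase that makes poly(ADP-ribose) on telomere and Wnt pathway proteins, fell to 29.6 ± 1.996 TPM in knockout, against 44.2 ± 6.996 TPM in wild type (limma adjusted p 0.0189). Both calls were lost with knockout replicate 1, knockout replicate 2 or wild-type replicate 3 omitted. That of Parp3 was also lost with wild-type replicate 2 omitted, without the filter (limma adjusted p 0.0612) and with plain moderation (0.0536). Parp4, Parp6, Parp16, Tnks and Tiparp did not pass. Parp4, the vault particle member, had 17.1 ± 0.510 TPM in knockout and 23.2 ± 5.28 TPM in wild type, and Parp16, of the endoplasmic reticulum, had 7.61 ± 0.396 TPM in knockout and 10.9 ± 3.77 TPM in wild type.

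Among 14 tested genes that remove or read ADP-ribose, 1 was called higher and 2 lower. For comparison, 4.47% of all tested genes were called higher and 10.2% lower. Dtx4, a Deltex ubiquitin ligase of the same family as Dtx3l, fell to 18.1 ± 0.815 TPM in knockout, against 32.2 ± 5.83 TPM in wild type (SD, n = 3 each, limma adjusted p 0.00723), and was called with any 1 library omitted. Macrod2, a hydrolase of single ADP-ribose units, rose to 3.48 ± 0.135 TPM in knockout, against 1.99 ± 0.513 TPM in wild type, a call that was lost with any 1 library omitted and without the filter. Rnf146, a ubiquitin ligase that reads poly(ADP-ribose), had 17.7 ± 1.78 TPM in knockout and 23.5 ± 2.06 TPM in wild type. Its lower call was lost with FPKM, both scalings, plain moderation or no filter, and with any library other than wild-type replicate 1 omitted. Oard1, a hydrolase of ADP-ribose esters, had 17.7 ± 0.520 TPM in knockout and 23.1 ± 3.64 TPM in wild type and did not pass. Of 11 repair partners of PARP1 and PARP2, the tyrosyl-DNA phosphodiesterase gene Tdp1 was called, with 14.2 ± 1.94 TPM in knockout and 19.6 ± 0.858 TPM in wild type. Its call was lost with both scalings, without the filter and with any library other than wild-type replicate 1 omitted. Top1, the target of topoisomerase poisons, had 50.8 ± 3.901 TPM in knockout and 61.03 ± 3.31 TPM in wild type and did not pass. Xrcc1, the scaffold recruited by poly(ADP-ribose), had 29.5 ± 1.21 TPM in knockout and 34.1 ± 3.93 TPM in wild type and did not pass.

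NAD is the substrate of these transferases. Of 18 tested genes of NAD synthesis and use, 1 rose, 2 fell and 15 did not pass, beside 4.47% higher and 10.2% lower over all genes. Bst1, a surface enzyme that consumes NAD, rose to 476 ± 18.1 TPM in knockout, against 292 ± 35.6 TPM in wild type (SD, n = 3 each, limma adjusted p 0.00328), and was called with any 1 library omitted. The NAD-dependent deacetylase gene Sirt1 fell to 6.27 ± 0.619 TPM in knockout, against 9.97 ± 1.496 TPM in wild type, and the mitochondrial NAD kinase gene Nadk2 fell to 5.62 ± 0.390 TPM in knockout, against 8.66 ± 0.790 TPM in wild type. Sirt1 lost its call without the filter and with knockout replicate 1 or 2 or wild-type replicate 2 or 3 omitted. Nadk2 lost it with any of these libraries or knockout replicate 3 omitted. Nampt, the rate-limiting enzyme of NAD salvage, had 138 ± 3.698 TPM in knockout and 110.4 ± 16.1 TPM in wild type and did not pass (limma adjusted p 0.0572). Of 12 cofactors of ZAP in RNA decay, none rose and 2 fell. The helicase gene Ddx17 fell to 76.1 ± 5.502 TPM in knockout, against 114 ± 14.4 TPM in wild type and was called with any 1 library omitted. The deadenylase gene Parn fell to 14.7 ± 1.14 TPM in knockout, against 19.98 ± 2.096 TPM in wild type. The Parn call was lost with both scalings, plain moderation or no filter, and with any library other than wild-type replicate 1 omitted. Khnyn, a nuclease partner of ZAP, had 7.38 ± 0.657 TPM in knockout and 10.6 ± 2.24 TPM in wild type, and the exosome subunit gene Exosc5 had 58.4 ± 2.52 TPM in knockout and 66.4 ± 7.504 TPM in wild type, and neither passed. Trim25, the ubiquitin ligase that ZAP requires, had 92.4 ± 7.77 TPM in knockout and 92.5 ± 5.65 TPM in wild type.

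The tested genes whose pattern over the 6 libraries came closest to the mean of the 7 interferon-linked genes included Agrn, Adar, Scimp and Ogfr. Their centred log2 values differed from that mean by 0.035 to 0.045 on average over the 6 libraries, where the median over all other tested genes was 0.378. Scimp had 196 ± 26.2 TPM in knockout and 128 ± 6.75 TPM in wild type (SD, n = 3 each). For the 3 other members the closest were Ppil3, Suds3, Acvr1, Ints3 and Enoph1, at 0.011 to 0.021 against a median of 0.127.

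**Figure D5:**
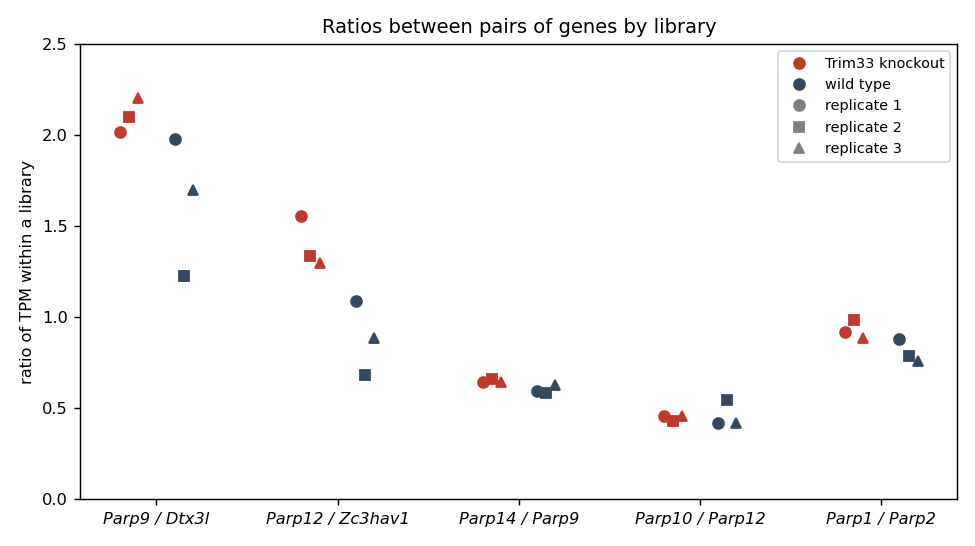
Ratio of TPM of pairs of genes within each library (y axis, linear), Trim33 knockout left of wild type, symbols by replicate number. Parp9 to Dtx3l, Parp12 to Zc3hav1, Parp14 to Parp9 and Parp1 to Parp2 are higher in every knockout library than in every wild-type library. Parp10 to Parp12 overlaps, and Parp14 to Parp9 stays between 0.583 and 0.659 over all libraries.

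Several features of the whole table bear on these values. Of the calls, 497 were higher and 1129 lower on the TPM scale, 592 and 394 after median-ratio scaling, and 559 and 587 after quantile normalization, while 5 of 7 interferon-linked genes were called under each. Alveolar macrophage markers were abundant in every library, with Siglecf at 272 ± 9.35 TPM in knockout and 382 ± 46.4 TPM in wild type (SD, n = 3 each). The 12 markers summed to 19277 to 22288 TPM in knockout and 27605 to 29185 TPM in wild type. Of them, 7 were called lower, 2 after median-ratio scaling and 2 to 7 with a library left out. Of 10 monocyte markers, 5 were higher, among them Ly6c2, Plac8, Apoe and Vcan, and Fn1 was lower. Ly6c2 had 74.5, 73.3 and 18.8 TPM in knockout replicates 1, 2 and 3, against 6.03, 1.73 and 3.99 TPM in wild type. Knockout replicate 3 was thus the lowest knockout library here too. None of the 10 passed with wild-type replicate 3 omitted, and 1 passed in each fit without knockout replicate 1, knockout replicate 2 or wild-type replicate 2. Without knockout replicate 3, 7 were called higher. Without wild-type replicate 1, 5 were higher and Fn1 lower, the only such fit in which Fn1 passed. Ccr2 had 4.50 ± 1.65 TPM in knockout and 4.83 ± 0.946 TPM in wild type, and the summed level of the 10 was 290 to 409 TPM in knockout and 377 to 673 TPM in wild type. Fn1 made up most of that sum in wild type, with 98.9 ± 40.8 TPM in knockout and 429 ± 161 TPM in wild type. Of the 10 differences, 8 were positive, with a median of 0.90. Summed markers of T and NK cells (6.61 to 7.57 TPM in knockout, 3.75 to 6.29 TPM in wild type), of conventional dendritic cells (9.19 to 12.5 and 8.31 to 9.17 TPM) and of plasmacytoid dendritic cells (6.68 to 7.41 and 6.44 to 8.45 TPM) were low. Of these, Ccr7, a marker of migratory dendritic cells, was higher (4.93 ± 0.922 TPM in knockout, 1.65 ± 0.464 TPM in wild type, SD, n = 3 each, limma adjusted p 0.00677), and was called with any 1 library omitted. Gzma, of T and NK cells, was higher (4.21 ± 0.472 TPM in knockout, 2.31 ± 0.680 TPM in wild type, limma adjusted p 0.0361), and the plasma cell marker Jchain was lower (1.36 ± 0.217 TPM in knockout, 3.47 ± 0.764 TPM in wild type, limma adjusted p 0.0138). Gzma lost its call with 4 of the 6 libraries omitted in turn, and Jchain with wild-type replicate 3 omitted. Summed markers of B and plasma cells were at most 6.85 TPM in any library, and those of eosinophils were 0.39 to 1.02 TPM in knockout and 1.05 to 1.5 TPM in wild type. The neutrophil list reached 157 to 165 TPM in knockout and 136 to 154 TPM in wild type, mostly as S100a8, while Ly6g was listed at 0 in 5 libraries. Epithelial markers summed to 155 to 275 TPM in knockout and 209 to 267 TPM in wild type, and those of endothelium, fibroblasts and red cells to 40.9 to 55.9 and 34.8 to 59.8 TPM. The part of these cell types in the results was not tested.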

How the data were processed

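RNA had been extracted with TRIzol and made into libraries with an MGI kit, per the labels' protocols. HISAT2 2.0.4 and Bowtie2 2.2.5 appear in the submitters' processing notes, with the build GRCm38.p6 and no roles. The authors deposited TPM values (main) and FPKM values (an alternative) per gene and library, with units per the file headers and 2 decimals in the values. Ratios of low FPKM values of the other 5 libraries to wild-type replicate 1 showed no shared step, with 7.15% to 8.98% of 1244 to 1338 genes in the commonest ratio bin, so depth is unknown and no counting interval is given. Since TPM has a fixed total, a rise of abundant genes would lower the rest, and whether this shaped the values here was not tested.

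Knockout (3 libraries) and wild type (3 libraries) were compared on log2(TPM + 1) by limma (version 3.58.1, R version 4.3.3), using trended, robust variances. The 11111 genes tested reached 1 TPM in 3 or more libraries. Benjamini-Hochberg adjustment ran over all of them, with a threshold of 0.05. Ratios were compared with exact permutation tests. The fit was tested on simulated data. No pair of libraries had the same nonzero value in more than 2.37% of genes.

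The 10 genes and all lists were chosen with earlier results of these data known. Named genes were the 10, Trim33, up to 4 per list with the smallest adjusted p, and the 5 closest in pattern. Irf9, Tiparp, Trim25, Parp6 and Tnks were chosen after their values were seen. Some genes under the naming rule are not reported here. Of the table, 17024 genes matched RefSeq IDs. Alternatives were FPKM, pseudocounts of 0.1 and 5, the filter dropped, a filter at 5 TPM, median-ratio and quantile scaling, plain moderation, library weights, a replicate block and each library left out, and for the ratios, added after seeing the data, FPKM and each library left out. Plots were made in Python 3.11.15 (matplotlib 3.10.9).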

Additional observations from a re-analysis of the deposited data

How the results depend on the processing

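The interferon-linked genes called higher numbered 5 of 7 with FPKM, both other pseudocounts, a minimum of 5 TPM, both scalings and the replicate block. They numbered 4 without the filter and with plain moderation (Parp11 did not pass), 6 with library weights (Dtx3l passed, adjusted p 0.0461), and 0 to 5 with a library left out. Differences of these 7 genes were positive in all 16 settings, from 0.05 for Zc3hav1 to 0.94 for Parp14. Of the 3 other members, 1 (Parp2, lower) was called with library weights, and 0 to 1 with a library left out, that 1 being Parp2 without wild-type replicate 1.

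Over all genes, higher calls numbered 1004 with library weights, 753 with the replicate block and 124 to 800 with a library left out. Lower calls numbered 326 without the filter, 394 with median-ratio scaling, 587 with quantile normalization, 672 with plain moderation, 2552 with library weights, 2147 with the replicate block and 84 to 2577 with a library left out. The cause of these shifts was not tested. Same-numbered libraries did not deviate together in every pair (correlations of deviations 0.323, -0.0325 and 0.0854). The labels state no pairing, and these values cannot settle whether the numbers pair the samples. The block changed no call among the 10 genes. With FPKM each log2 ratio was the same to 2 decimals, which follows from the units, since FPKM and TPM differ by a common factor per library. Leaving out a library moved the log2 ratio of Parp10 to Parp12 between -0.10 and 0.095. Depth is unknown, and 3 libraries per group limit every statement here.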
